A study of Rattus norvegicus with 21 samples.

Results

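Livers of 3 male Sprague-Dawley rats given piperonyl butoxide (PBO) at 500 mg/kg by mouth for 7 days were compared with livers of 3 male Sprague-Dawley rats given only the vehicle, 0.5% methyl cellulose, over the same 7 days. The 6 arrays were chosen by their titles, from 21 in all. The other 15 were 3 PBO arrays at 1000 mg/kg and 3 at 1500 mg/kg, and 9 arrays of a separate study of dammar resin (DAM), a plant resin mixed into the diet of male Fischer344 rats for 28 days. That study supplied 3 rats at 800 mg/kg, equivalent to 2% of the diet, 3 at 2000 mg/kg, equivalent to 5%, and 3 on a basal diet, and the 2000 mg/kg arrays enter here only through the filter and the spread that the fits share. The labels call the 3 samples of a group biological replicates, and none gives the animals' age. PBO livers were kept in RNAlater and DAM livers were frozen in liquid nitrogen.

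PBO is a methylenedioxyphenyl compound added to pyrethroid insecticides, whose breakdown by insect cytochrome P450 enzymes it slows. The liver senses many foreign chemicals through the nuclear receptors CAR and PXR, which induce P450 enzymes, conjugating enzymes and exporters. The aryl hydrocarbon receptor (AhR) induces mainly Cyp1 enzymes, and NRF2 induces enzymes of glutathione and NADPH metabolism through antioxidant response elements. At high doses PBO is known as an inducer of hepatic P450 enzymes and as a liver tumour promoter in rodents.

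Each array reported 31042 probe sets that are not array controls, and 18625 of them were bright enough to be tested. Values are MAS5 signals on a linear scale, whose trimmed mean was 500.3 on all 12 PBO arrays and whose median lay between 94.3 and 114. Transcripts of hepatocytes were strong throughout: Alb, which encodes albumin, had signals of 53398, 56123 and 69211 in the PBO 500 animals, against 44668, 51309 and 68712 in controls. Precision is limited by the 3 arrays that each group has. Changes are differences of log2(signal + 16), given with the standard error (SE) of a limma fit over the 12 PBO arrays. Adding 16 understates the change of dim probe sets. A probe set was called when its Benjamini-Hochberg adjusted p over all probe sets tested was under 0.05.

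At 500 mg/kg of PBO, 89 of 18625 probe sets were called (0.478%). Of these 65 were higher (0.349%) and 24 lower (0.129%) than in controls, so 73.0% of the calls were rises. With every array scaled to the same median signal, 113 were called, 84.1% of them rises, and that scaling moved the median change of all probe sets by 0.08 (log2). Rises of at least 2-fold numbered 44, and falls of at least 2-fold numbered 16. In all 89 the 3 PBO 500 values lay entirely on one side of the 3 control values, as they did in 8.57% of all probe sets tested in the upward direction and 11.6% in the downward direction. A single gene symbol was available for 74 of the 89, and they stand for 66 genes, 48 higher and 18 lower. The rises were led by enzymes and exporters of drug metabolism, and the deepest fall was that of the fatty acid desaturase Scd.

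**Figure D1:**
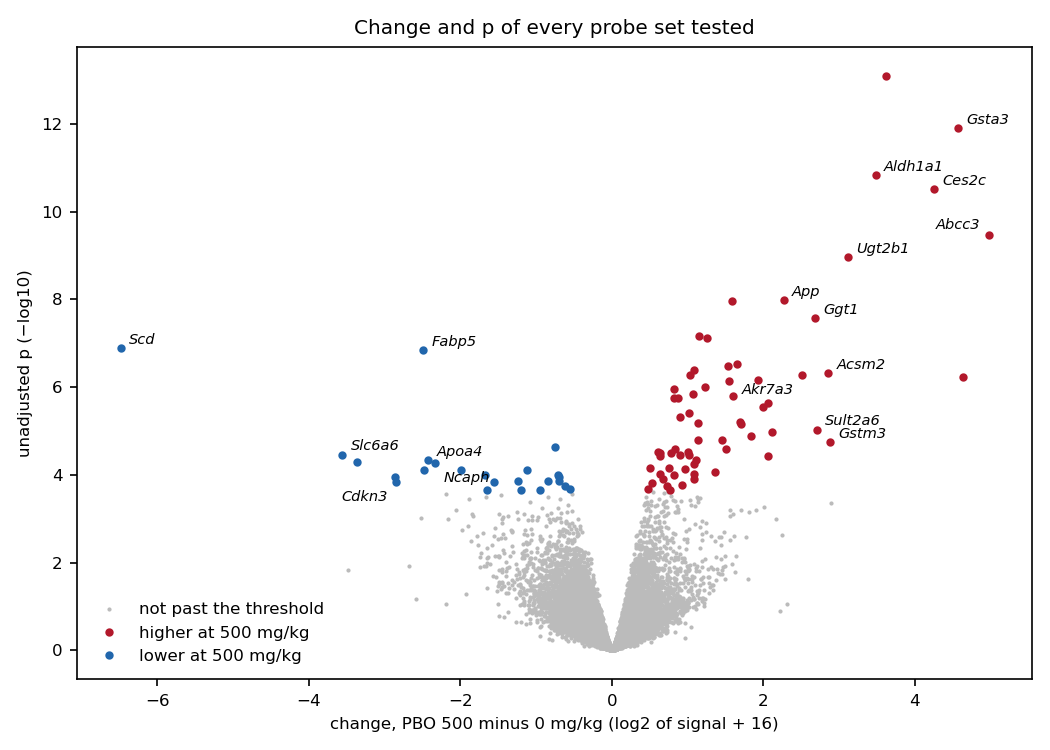
Each point is 1 of 18625 probe sets. The horizontal axis is the change (PBO 500 minus 0 mg/kg, log2 of signal + 16) and the vertical axis the unadjusted p of the limma fit (−log10). The 65 red points were called higher and the 24 blue points lower, and symbols are given for the called genes with the largest changes.

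The number of calls depended on an array outside the comparison. PBO 1500 replicate 3 deviated from its group mean by 0.495 (root mean square, log2). The other 1500 mg/kg arrays deviated by 0.355 and 0.368, and the 9 arrays at 0, 500 and 1000 mg/kg by 0.276 to 0.313. The fit pools the spread over all doses. With PBO 1500 replicate 3 left out, 371 probe sets were called (1.99%), 228 higher (1.22%) and 143 lower (0.768%), and they included all 89. With only the 6 arrays of the comparison 269 were called (1.44%), of which 87 were among the 89. Leaving out 1 of the 6 compared arrays gave 52 calls without control replicate 1 or 2, 54 without PBO 500 replicate 1, 59 without PBO 500 replicate 2, 61 without control replicate 3 and 66 without PBO 500 replicate 3. In those fits 39 of the 65 rises kept their call every time, and so did 2 of the 24 falls, Scd and Fabp5. Calls lost in any of those fits are named with their adjusted p where they are described.

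Targets of CAR and PXR, as a list of 35 genes, had 26 measured members, 7 of which rose and none of which fell (0.44% of the 10670 genes tested were called higher and 0.141% lower). The median change of the 26 was 0.37, against -0.04 over all genes tested, and 22 of the 26 changes were positive. Over all 10670 genes tested, 4746 changes were positive and 5924 negative. Abcc3, which exports conjugates from the hepatocyte into blood, had signals of 1109, 1525 and 1509 in the PBO 500 animals, against 18.0, 15.7 and 63.3 in controls (probe set 1369698_at). The 2 lowest control values are near the bottom of the scale, and the groups were far apart. The change was 4.97 ± 0.29 (adjusted p = 1.29e-06), the largest rise among the probe sets tested. Ces2c, a carboxylesterase, had signals of 17986, 14399 and 12095 in the PBO 500 animals, against 878, 548 and 885 in controls (probe set 1368905_at), a ratio of group means of 19.2 and a change of 4.25 ± 0.20 (adjusted p = 1.43e-07). Aldh1a1, which oxidises retinal to retinoic acid, had 19353, 20170.1 and 28734 in the PBO 500 animals, against 1714, 1875 and 2454 in controls, and rose by 3.48 ± 0.16 (adjusted p = 9.34e-08). In both genes the lowest PBO 500 animal was far above the highest control.

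Ugt2b1, a glucuronosyltransferase, had signals of 31441, 33239 and 37164 in the PBO 500 animals, against 3172, 3148 and 5874 in controls. Control replicate 3 stood above the other controls but far under all 3 PBO 500 animals. The change was 3.12 ± 0.20 (adjusted p = 3.31e-06). Ephx1, the microsomal epoxide hydrolase, had 38063, 41741 and 48759 in the PBO 500 animals, against 16013, 17715 and 19844 in controls, and rose by 1.26 ± 0.12 (adjusted p = 1.30e-04). Cyp3a23-3a1, a PXR target of the rat, had 43619.8, 46258 and 47795 in the PBO 500 animals, against 24721, 24677 and 28714 in controls and rose by 0.82 ± 0.10 (adjusted p = 0.00117). Slco1a4, an organic anion uptake transporter, was called with both of its probe sets, by 0.64 ± 0.11 and 0.84 ± 0.13. The first of these lost its call whichever of the 6 arrays was left out (adjusted p of 0.0593 to 0.142), and the other without PBO 500 replicate 1 or control replicate 2 or 3 (adjusted p of 0.0644, 0.0644 and 0.0583).

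Probe set 1371076_at carries more than 1 symbol, all of the Cyp2b family of CAR-induced P450 enzymes, and is not assigned to 1 gene. Its signals were 37128, 34515 and 40706 in the PBO 500 animals, against 2842, 3327 and 2948 in controls. The values varied little within each group, and the change of 3.62 ± 0.11 had the smallest adjusted p of the comparison (1.49e-09). Probe set 1368718_at, which has no symbol in the platform annotation, had 18968, 16219.8 and 30953 in the PBO 500 animals, against 632, 350.5 and 2598 in controls, with control replicate 3 above the other controls and no overlap, and a change of 4.64 ± 0.51 (adjusted p = 5.50e-04). Por, the reductase that supplies P450 enzymes with electrons, had 2986, 2363 and 2004 in the PBO 500 animals, against 1353, 1682 and 1411 in controls. Those groups did not overlap, but Por was not called (0.71 ± 0.30, adjusted p = 0.459).

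AhR targets had no called member among 8 measured. Cyp1a1, the enzyme most closely tied to that receptor, had signals of 331, 207 and 92.8 in the PBO 500 animals, against 3.96, 20.5 and 12.0 in controls. Every PBO 500 value was higher than every control value, the values spread widely within the groups, and the change of 2.89 ± 0.62 missed the threshold (adjusted p = 0.0707). Cyp1a2 had 31795, 30094 and 29830.4 in the PBO 500 animals, against 19276, 18669 and 17209.8 in controls, a narrow spread in both groups, with a change of 0.73 ± 0.27 (adjusted p = 0.363). Nqo1, a quinone reductase under AhR and NRF2, had a change of 1.14 ± 0.24 (adjusted p = 0.0679). Without PBO 1500 replicate 3 all 3 were called, with adjusted p of 0.0252, 0.0245 and 0.0263 (1.61% of all genes were called higher in that fit).

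Glutathione S-transferases, which join glutathione to reactive compounds, had 5 rises and no fall among 20 measured genes. Of all genes tested, 0.44% were called higher and 0.141% lower. The median change of the 20 transferases was 0.45. Gsta3 led them, with signals of 5137, 7642 and 7550.2 in the PBO 500 animals, against 298, 257 and 244 in controls (probe set 1371089_at), a ratio of means of 25.5 and a change of 4.57 ± 0.17 (adjusted p = 1.16e-08). Gstm3 had 656, 783 and 1429 in the PBO 500 animals, against 112, 127 and 90.7 in controls, with more spread among the PBO 500 animals, no overlap, and a change of 2.88 ± 0.43 (adjusted p = 0.00808). Mgst2, a membrane-bound transferase, varied little within groups (14981, 13860.1 and 14143 in the PBO 500 animals, against 6313, 6555 and 6433 in controls) and rose by 1.15 ± 0.10 (adjusted p = 1.30e-04). The mu-class genes Gstm2 and Gstm1 rose by 0.82 ± 0.10 and 0.63 ± 0.10 (adjusted p of 8.49e-04 and 0.0127). Gstm1 lost its call without PBO 500 replicate 1 or 3 or control replicate 1 (adjusted p of 0.0509, 0.0576 and 0.0741). Probe set 1368180_s_at, annotated with more than 1 alpha-class symbol, rose by 0.79 ± 0.13 and lost its call without PBO 500 replicate 3 or control replicate 1 or 2 (adjusted p of 0.0537, 0.0704 and 0.0804). Gstp1, the placental form used as a marker of altered liver foci, had 1214, 835 and 1616 in the PBO 500 animals, against 804, 779.6 and 858 in controls. Its groups overlapped and its change was 0.53 ± 0.40 (adjusted p = 0.743). Of the 15 measured genes listed as markers of foci and tumours, Abcc3, Ggt1, Ephx1 and Akr7a3 rose and Scd fell.

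NRF2 targets had 6 rises and no fall among 26 measured genes (0.44% of all genes were called higher and 0.141% lower). The median change was 0.54 and 24 changes were positive. Abcc3 and Ephx1, already described, stand on that list too. Ggt1, the gamma-glutamyl transferase that takes glutathione apart outside the cell, had signals of 847, 900.0 and 613 in the PBO 500 animals, against 86.1, 92.8 and 154 in controls and rose by 2.68 ± 0.22 (adjusted p = 5.46e-05). Akr7a3, an aldo-keto reductase that acts on aflatoxin aldehyde, had 16172, 16375 and 22691 in the PBO 500 animals, against 3247, 3359 and 2938 in controls and rose by 2.51 ± 0.27 (adjusted p = 5.29e-04). Both were separated from controls by a wide gap. Gsr, glutathione reductase, had 1539, 1347 and 1643 in the PBO 500 animals, against 478, 464 and 573 in controls and rose by 1.55 ± 0.17 (adjusted p = 6.29e-04). Me1, the malic enzyme, an NADPH source, rose with both probe sets, by 1.66 ± 0.17 and 1.93 ± 0.21 (adjusted p of 3.93e-04 and 6.06e-04). Gclc, the catalytic subunit of glutamate-cysteine ligase, was called with 1 of its probe sets (1.08 ± 0.18), while the other had 0.59 ± 0.15 (adjusted p = 0.146). The first lost its call without PBO 500 replicate 1 or 3 or control replicate 1 or 3 (adjusted p of 0.0873, 0.0829, 0.101 and 0.0925).

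Other enzymes and carriers of drug metabolism held fewer calls. Of all genes tested, 0.44% were called higher and 0.141% lower. Among 21 measured UDP-glucuronosyltransferases and sulfotransferases, Ugt2b1 and Sult2a6 rose and none fell. Sult2a6, a hydroxysteroid sulfotransferase, had 5054, 6737 and 5196 in the PBO 500 animals, against 650.2, 1184 and 784 in controls, with no overlap, and rose by 2.71 ± 0.38 (adjusted p = 0.0048). Probe sets 1387759_s_at and 1370613_s_at, whose symbols are all of the Ugt1a family, rose by 1.02 ± 0.13 and 0.87 ± 0.11, and these transcripts share an end and cannot be told apart there. Among 30 other P450 and flavin monooxygenase genes only Cyp2j4, an epoxygenase, was called. Cyp2j4 had 7520.4, 7182 and 6422 in the PBO 500 animals, against 2015, 3936 and 2572 in controls, a change of 1.36 ± 0.24 (adjusted p = 0.0247), and lost its call without PBO 500 replicate 1, 2 or 3 or control replicate 1 or 3 (adjusted p of 0.115, 0.115, 0.061, 0.124 and 0.106). Cyp2c11, the main male-specific P450 of rat liver, had 35942, 39226 and 40213 in the PBO 500 animals, against 35836, 39902 and 43585 in controls, with overlapping groups and a change of -0.05 ± 0.35 (adjusted p = 0.985). Of 23 ABC transporters, Abcc3 and the porphyrin transporter Abcb6 rose, and Abcc9, a subunit of potassium channels, fell. Abcb6 changed by 0.93 ± 0.18 and lost its call without PBO 500 replicate 1 or 2 or control replicate 1, 2 or 3 (adjusted p of 0.157, 0.186, 0.134, 0.155 and 0.133). Of 34 uptake transporters, Slco1a4 rose and Slc6a6 fell. Aox1, aldehyde oxidase, had 13939, 12046 and 16447 in the PBO 500 animals, against 6504, 8347 and 6209 in controls and rose by 1.01 ± 0.16, a call lost without PBO 500 replicate 1 or 3 or control replicate 1 or 3 (adjusted p of 0.0563, 0.0576, 0.0731 and 0.0662).

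**Figure D2:**
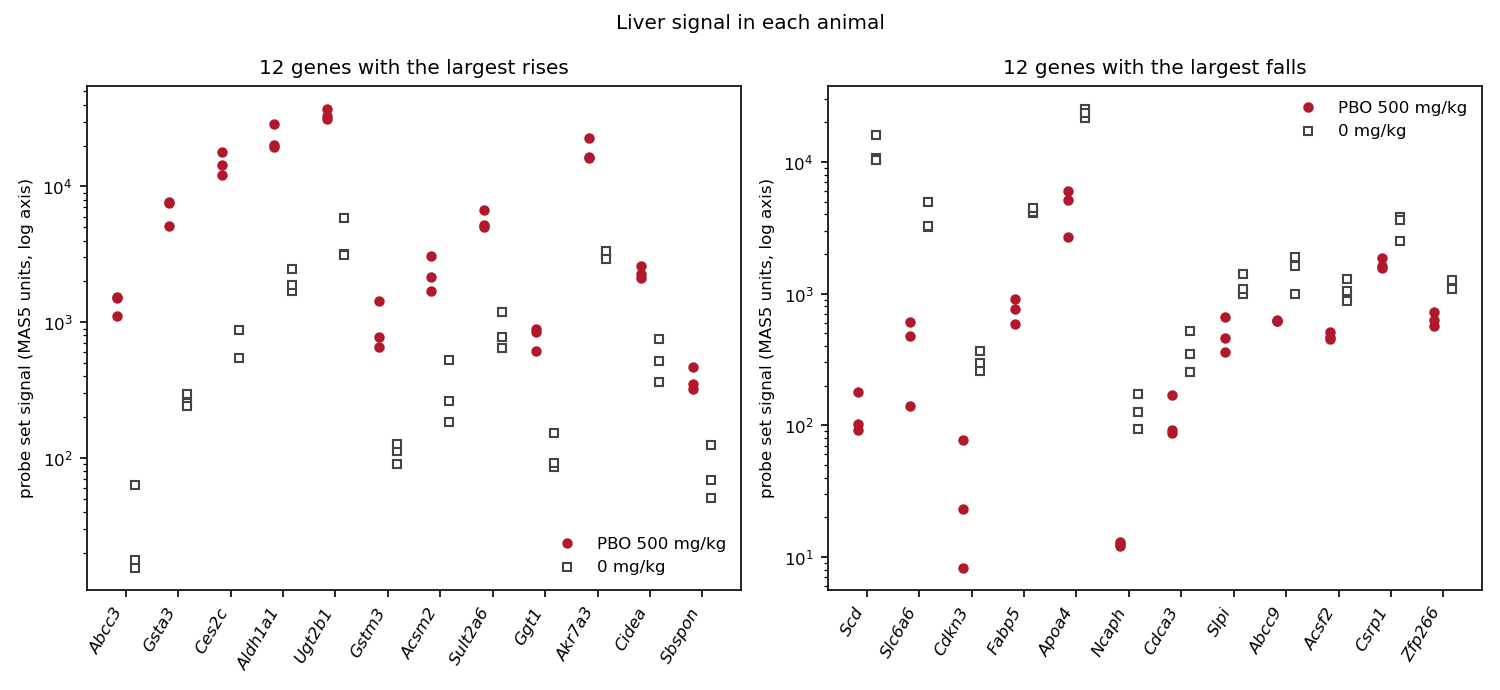
MAS5 signal (log axis) in each animal for the 12 genes with the largest rises, left, and the 12 with the largest falls, right, among called genes, 1 probe set a gene. Filled red circles are the 3 rats at PBO 500 mg/kg and open squares the 3 at 0 mg/kg. The groups do not overlap in any of the 24 genes, and Abcc3 and Scd show the widest gaps.

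Windows around the transcription start, 250 bases before to 50 after it in rat build GRCr8 (RefSeq), were available for 52 of the 66 called genes, 38 higher and 14 lower. Where a gene has several windows the first was used. Abcc3, the gene with the largest rise, has none in that table. The 5 windows printed here belong to 4 rises and to the deepest fall. Capitals mark the letters TGACNNNGC, the core of the antioxidant response element, in Gsta3, Me1 and Scd, and AGTTCA, a nuclear receptor half-site, in Ces2c and Ugt2b1, each searched on both strands. All 5 hold a marked motif, so they do not stand for the called genes at large. The windows of Aldh1a1, Gstm3, Ggt1 and Akr7a3, which rose by more than Me1, hold neither.
Gsta3 (chr9:31154739-31155038, plus strand): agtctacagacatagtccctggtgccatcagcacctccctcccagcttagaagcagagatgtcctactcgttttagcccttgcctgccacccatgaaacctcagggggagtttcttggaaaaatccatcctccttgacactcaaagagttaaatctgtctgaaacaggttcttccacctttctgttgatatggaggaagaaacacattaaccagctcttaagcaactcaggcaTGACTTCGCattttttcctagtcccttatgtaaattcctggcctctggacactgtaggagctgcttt
Me1 (chr8:96540195-96540494, minus strand): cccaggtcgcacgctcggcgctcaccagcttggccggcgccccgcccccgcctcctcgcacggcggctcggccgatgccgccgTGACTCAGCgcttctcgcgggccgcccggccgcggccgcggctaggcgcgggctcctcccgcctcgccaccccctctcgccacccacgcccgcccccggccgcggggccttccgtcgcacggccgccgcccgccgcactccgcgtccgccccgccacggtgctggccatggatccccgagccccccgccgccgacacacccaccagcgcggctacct
Ces2c (chr1:270376951-270377250, plus strand): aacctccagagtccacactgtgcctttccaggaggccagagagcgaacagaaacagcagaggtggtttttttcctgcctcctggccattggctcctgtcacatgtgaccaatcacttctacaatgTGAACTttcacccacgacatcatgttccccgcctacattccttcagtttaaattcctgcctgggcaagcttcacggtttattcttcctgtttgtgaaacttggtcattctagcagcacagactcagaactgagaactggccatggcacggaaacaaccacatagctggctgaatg
Ugt2b1 (chr14:21378632-21378931, plus strand): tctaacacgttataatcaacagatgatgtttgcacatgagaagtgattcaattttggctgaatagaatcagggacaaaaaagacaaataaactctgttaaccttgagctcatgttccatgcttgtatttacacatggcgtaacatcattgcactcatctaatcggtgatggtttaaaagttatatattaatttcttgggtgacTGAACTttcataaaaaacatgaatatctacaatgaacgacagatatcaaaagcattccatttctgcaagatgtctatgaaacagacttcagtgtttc
Scd (chr1:253231682-253231981, minus strand): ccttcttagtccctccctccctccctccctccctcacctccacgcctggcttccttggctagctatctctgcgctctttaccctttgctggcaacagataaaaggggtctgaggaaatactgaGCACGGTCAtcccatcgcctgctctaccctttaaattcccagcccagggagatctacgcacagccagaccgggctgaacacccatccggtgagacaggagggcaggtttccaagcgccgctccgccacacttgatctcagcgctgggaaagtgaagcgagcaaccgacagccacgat
The match of Gsta3 begins 17 bases before the start and that of Me1 167 bases before it. In Ces2c, Ugt2b1 and Scd the letters are found on the opposite strand, so the reverse complement is in capitals. TGACNNNGC was present in 8 of 38 windows of genes that rose (21.1%), in 5 of 14 of genes that fell (35.7%) and in 12.2% of the windows of all 27457 genes. AGTTCA was present in 8 of 38 (21.1%) and 1 of 14 (7.14%), against 14.4% of all. For AGGTCA, another half-site, the counts were 6 of 38 and 4 of 14, against 15.7% of all, and for GCGTG, the core of the xenobiotic response element, 14 of 38 and 8 of 14, against 31.1%. These are descriptions of the letters in short windows, and distal sites lie outside them.

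Lipid genes moved in both directions. Of 42 measured genes of fatty acid synthesis and desaturation, 2 rose and 2 fell (0.44% and 0.141% of all genes). The median change was -0.03. Scd, the stearoyl-CoA desaturase that makes monounsaturated fatty acids, had signals of 91.8, 103 and 179 in the PBO 500 animals, against 10752, 10273 and 16046 in controls (probe set 1370355_at). All 3 dosed animals were far under the lowest control, and the ratio of control to PBO 500 means was 99.2. The change of -6.48 ± 0.62 (adjusted p = 2.04e-04) was the largest in either direction. Fabp5, a fatty acid binding protein, had 917, 587 and 758 in the PBO 500 animals, against 4119, 4141 and 4485 in controls, with little spread among controls, and fell, with a change of -2.49 ± 0.24 (adjusted p = 2.06e-04). Cidea, a lipid droplet protein, had 2107, 2285 and 2606 in the PBO 500 animals, against 754, 523 and 361 in controls and rose by 2.12 ± 0.30 (adjusted p = 0.0054). Me1, described above, was the other rise.

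Srebf1 and Pklr had groups that did not overlap, without being called. Srebf1, which encodes the transcription factor that drives fatty acid synthesis genes, had 3537, 3207 and 3521 in the PBO 500 animals, against 5175, 5936 and 5861 in controls, a change of -0.72 ± 0.32 and an adjusted p of 0.48. Pklr, liver pyruvate kinase, had 1645, 1639.7 and 2002 in the PBO 500 animals, against 4273, 4569 and 5150.1 in controls, a change of -1.40 ± 0.46 and an adjusted p of 0.294 (this gene was chosen after its values were seen). Without PBO 1500 replicate 3 the adjusted p was 5.84e-04 for Srebf1 and 5.03e-05 for Pklr, and 8 members of the list were then called lower and 3 higher (0.849% and 1.61% of all genes).

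Fatty acid oxidation and PPARalpha targets had 4 rises and no fall among 49 measured genes (0.44% of all genes were called higher and 0.141% lower). The median change was 0.26 and 42 changes were positive. Vnn1, a pantetheinase, had 2747, 1739 and 2079 in the PBO 500 animals, against 595, 743 and 777 in controls and rose by 1.60 ± 0.19 (adjusted p = 0.00115). Decr1, Eci1 and Hadhb, enzymes of mitochondrial beta-oxidation, rose by 0.63 ± 0.10, 1.08 ± 0.20 and 0.48 ± 0.09. The other probe set of Eci1 was not called (0.92 ± 0.48, adjusted p = 0.576). Decr1 had 16778, 16440.3 and 17341 in the PBO 500 animals, against 10778, 10872 and 10913 in controls, values that barely varied within a group. All 3 lost their calls whichever of the 6 arrays was left out, with adjusted p of 0.0571 to 0.0706 for Decr1, 0.0613 to 0.144 for Eci1 and 0.0809 to 0.202 for Hadhb. Without PBO 1500 replicate 3, 10 of the 49 were called higher, and so were 1.61% of all genes. Cyp4a1, the fatty acid omega-hydroxylase used as a marker of PPARalpha, had 10241, 7040.0 and 9029.9 in the PBO 500 animals, against 6151, 4571 and 6927 in controls, with a change of 0.58 ± 0.23 (adjusted p = 0.42).

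Of 12 measured acyl-CoA synthetases 1 rose and 1 fell, and of 18 apolipoproteins 1 fell. Over all genes tested, 0.44% were called higher and 0.141% lower. Acsm2, a medium-chain acyl-CoA synthetase, had 2157, 3076 and 1701 in the PBO 500 animals, against 262, 185 and 527 in controls, no overlap, and rose by 2.86 ± 0.31 (adjusted p = 5.29e-04). Acsf2, another acyl-CoA synthetase, had 512, 465 and 455 in the PBO 500 animals, against 1291, 1039.5 and 881 in controls and a change of -1.12 ± 0.20, a call lost without PBO 500 replicate 1, 2 or 3 or control replicate 1 or 2 (adjusted p of 0.0706, 0.108, 0.0831, 0.131 and 0.0951). Apoa4, an apolipoprotein of triglyceride-rich particles, had 5978, 2672 and 5121 in the PBO 500 animals, against 21419.8, 25254 and 23419.6 in controls. All PBO 500 values were far under every control value, and the change was -2.42 ± 0.40 (adjusted p = 0.0158). That call was lost without PBO 500 replicate 2 or control replicate 1, 2 or 3 (adjusted p of 0.0867, 0.0678, 0.0829 and 0.0665). No gene among 22 of cholesterol synthesis and uptake was called, although 20 of the 22 changes were positive and the median was 0.42. An animal stood apart in this list: the median of the 22 genes, relative to the control mean, was 0.67 and 0.73 in PBO 500 replicates 1 and 2 and 0.02 in replicate 3, against -0.07 to 0.03 in controls. Their smallest adjusted p was that of Sqle, squalene epoxidase (0.85 ± 0.19, adjusted p = 0.0894).

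Transport and breakdown of sulfur and other amino acids supplied several falls. Slc6a6, the taurine transporter, had 476, 610.2 and 141 in the PBO 500 animals, against 4956, 3209.9 and 3253 in controls with 1 probe set. With the other it had 217, 187 and 19.2 in the PBO 500 animals, against 1972, 956 and 1389.6 in controls. PBO 500 replicate 3 was the lowest with both, and no dosed animal reached a control. The changes were -3.36 ± 0.56 and -3.56 ± 0.57 (adjusted p of 0.0171 and 0.0129). The first lost its call without PBO 500 replicate 3 or control replicate 1, 2 or 3 (adjusted p of 0.057, 0.101, 0.0685 and 0.0583), and the other without control replicate 1 (adjusted p = 0.083) or 3 (adjusted p = 0.0583). Bhmt, which remethylates homocysteine, fell, with 21852, 21622 and 17053 in the PBO 500 animals, against 31650.1, 35300.5 and 30410.5 in controls and a change of -0.69 ± 0.13. Gls2, liver glutaminase, had 4442, 5173 and 4217 in the PBO 500 animals, against 6491, 8661 and 7509 in controls and a change of -0.71 ± 0.13. Bhmt lost its call whichever of the 6 arrays was left out (adjusted p of 0.0631 to 0.155), and Gls2 without PBO 500 replicate 1 or 3 or control replicate 2 or 3 (adjusted p of 0.121, 0.109, 0.144 and 0.106). Of 52 measured genes of gluconeogenesis, glycolysis and amino acid breakdown these 2 were the only calls. Over all genes tested, 0.44% were called higher and 0.141% lower. Of the 52 changes 37 were negative, against 5924 of 10670 over all genes tested, and the median was -0.14. In 19 of the 52 all PBO 500 values were under all controls and in 4 above them (12.2% and 9.35% of all genes). Gls2 was also the only call among 13 urea cycle and glutamine enzymes. In 8 of those 13 all PBO 500 values were under all controls and in 1 above them. Their summed signals were 152992 to 171195 in PBO 500 animals and 175874 to 198393 in controls, without overlap. Of 24 genes of taurine and sulfur amino acid metabolism, Ggt1 rose, and Slc6a6 and Bhmt fell.

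Other falls had no list in common. Gulo, which makes the last step of vitamin C synthesis in the rat, had 7801, 7023 and 6784 in the PBO 500 animals, against 9828, 10258 and 11615 in controls with the probe set that was called, a change of -0.55 ± 0.11 and an adjusted p of 0.0466. Its other probe set had -0.53 ± 0.12 and was not called (adjusted p = 0.0868). Slpi, a secreted protease inhibitor, had 359, 459 and 666 in the PBO 500 animals, against 1405, 1001 and 1080.1 in controls and a change of -1.24 ± 0.23. Abcc9 had 635, 616 and 617 in the PBO 500 animals, against 1612, 1898 and 987 in controls, with nearly equal values at 500 mg/kg, and a change of -1.19 ± 0.23. Its other probe sets had -1.06 ± 0.28 and -1.25 ± 0.28 and were not called (adjusted p of 0.157 and 0.0894). Csrp1, a LIM domain protein, had 1875, 1576 and 1613 in the PBO 500 animals, against 3787, 3612 and 2527 in controls and a change of -0.95 ± 0.19. Slc22a8, an organic anion transporter, was called with 1 probe set (-1.64 ± 0.32), while the other had -1.06 ± 0.24 (adjusted p = 0.0987). Zfp266, Rmdn2 and Csnk2a1 fell by less, with changes of -0.85, -0.74 and -0.70. Csnk2a1, a catalytic subunit of casein kinase 2, had 4 further probe sets tested, none of them called.

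None of these falls held against every single array left out. The called probe set of Gulo lost its call whichever of the 6 arrays was left out (adjusted p of 0.0824 to 0.201). So did those of Csnk2a1 (0.085 to 0.172) and Zfp266 (0.0501 to 0.169). Slpi lost it without PBO 500 replicate 1 or 2 or control replicate 1, 2 or 3 (adjusted p of 0.141, 0.15, 0.181, 0.0804 and 0.0999), and Abcc9 without PBO 500 replicate 1, 2 or 3 or control replicate 1 or 2 (adjusted p of 0.141, 0.175, 0.128, 0.206 and 0.201). For Csrp1 this happened without PBO 500 replicate 1, 2 or 3 or control replicate 1 or 2 (adjusted p of 0.101, 0.198, 0.143, 0.212 and 0.201), for Slc22a8 without PBO 500 replicate 2 or 3 or control replicate 1, 2 or 3 (adjusted p of 0.193, 0.145, 0.182, 0.191 and 0.11), and for Rmdn2 without PBO 500 replicate 1 or control replicate 3 (adjusted p of 0.0541 and 0.0583).

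Of the 58 measured cell cycle genes most had lower values at 500 mg/kg, though few were called. Among them 2 were called lower and 1 higher (0.141% and 0.44% of all genes). The median change was -0.69, 46 changes were negative, and 22 members had all PBO 500 values under all controls, against 12.2% of all genes tested. An unadjusted p under 0.05 was reached by 23 members in the lower direction, against 5.66% of all genes. Cdkn3, a phosphatase of cyclin-dependent kinases, had 77.3, 23.3 and 8.31 in the PBO 500 animals, against 260.1, 298 and 369 in controls and a change of -2.85 ± 0.54 (adjusted p = 0.0349). Cdca3, which promotes entry into mitosis, had 92.6, 88.0 and 169 in the PBO 500 animals, against 254, 349.9 and 523 in controls and a change of -1.56 ± 0.29 (adjusted p = 0.0349). In both, all dosed animals were lower than all controls. Cdkn3 lost its call without PBO 500 replicate 2 or 3 or control replicate 1, 2 or 3 (adjusted p of 0.151, 0.119, 0.117, 0.137 and 0.151), and Cdca3 without PBO 500 replicate 1 or 2 or control replicate 2 or 3 (adjusted p of 0.146, 0.175, 0.134 and 0.155).

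Ncaph, a condensin subunit that is not on the list, had 12.1, 12.5 and 13.1 in the PBO 500 animals, against 93.7, 126 and 174 in controls, values near the bottom of the scale in all 3 dosed animals. Its change was -2.33 ± 0.39 (adjusted p = 0.0175), a call that failed without PBO 500 replicate 1, 2 or 3 or control replicate 2 or 3 (adjusted p of 0.0668, 0.0697, 0.0567, 0.0804 and 0.0959). Plk1, a mitotic kinase, had 28.0, 25.4 and 26.1 in the PBO 500 animals, against 123, 207 and 219 in controls, a change of -2.19 ± 0.44 and an adjusted p of 0.054, with no overlap. The proliferation marker Mki67 had 79.2, 50.6 and 136 in the PBO 500 animals, against 151, 167 and 207 in controls and was not called (-0.94 ± 0.36, adjusted p = 0.379). Ccnd1, cyclin D1, had 337, 296 and 729 in the PBO 500 animals, against 1327, 835 and 1591 in controls and was not called either (-1.50 ± 0.81, adjusted p = 0.596). Zwint, listed for its role at the kinetochore, went the other way. It had 6974, 6347 and 6639 in the PBO 500 animals, against 2247, 1983 and 2665 in controls, with no overlap, and rose by 1.54 ± 0.16 (adjusted p = 4.05e-04). Summed over the 58 genes, signals were 16510 to 19864 in PBO 500 animals and 17125 to 20011 in controls, which overlapped. Without Zwint, left out after its values were seen, the sums of the other 57 were 9851, 10164 and 13225 in the PBO 500 animals, against 14879, 15472 and 17346 in controls, with no overlap. The list's median, relative to the control mean, was -0.82, -0.74 and -0.25 in the 3 PBO 500 animals, against -0.04 to 0.10 in controls.

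**Figure D3:**
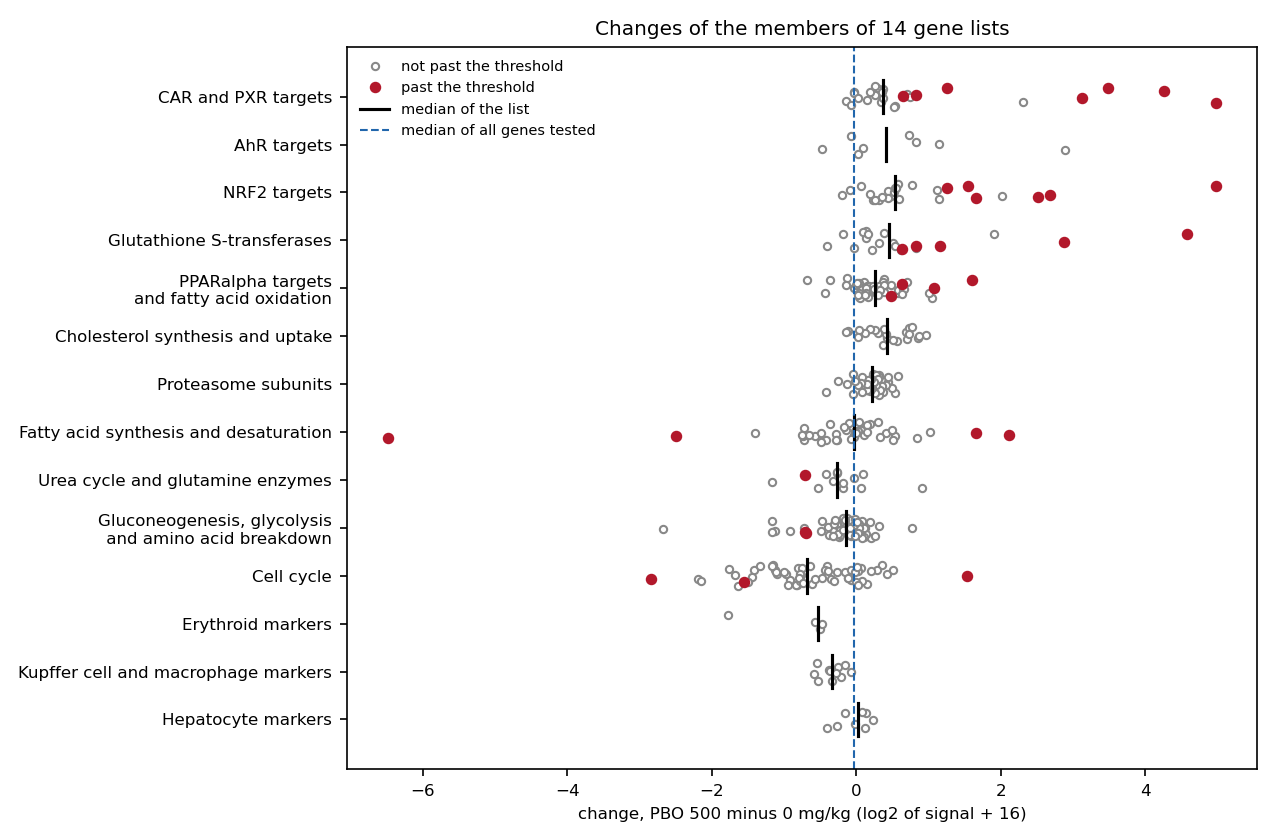
Change (PBO 500 minus 0 mg/kg, log2 of signal + 16) of each measured member of 14 gene lists. Filled red points were called, open points were not, black bars are list medians and the dashed line is the median of all genes tested (-0.04). Calls gather in the lists of drug metabolism, while the cell cycle list is shifted lower (median -0.69) with 3 calls.

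The remaining rises came from several processes. App, the amyloid precursor protein, was called with all 3 probe sets tested, by 1.03 ± 0.11, 1.59 ± 0.12 and 2.27 ± 0.18 (adjusted p of 5.29e-04, 2.56e-05 and 2.56e-05). Its probe set 1371572_at had 3034, 3039.7 and 3484 in the PBO 500 animals, against 1036, 991 and 1119.8 in controls. Nol3, a repressor of apoptosis, had 368, 231 and 296 in the PBO 500 animals, against 74.5, 38.5 and 66.0 in controls and rose by 2.06 ± 0.26 (adjusted p = 0.00146). Pir, pirin, had 2559, 2051 and 2002 in the PBO 500 animals, against 466, 899 and 368 in controls and rose by 2.00 ± 0.25 (adjusted p = 0.00173). In all 3 genes the groups were clearly apart.

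Slc37a1, a sugar phosphate exchanger of the endoplasmic reticulum, had 153, 140.3 and 167 in the PBO 500 animals, against 23.8, 39.1 and 47.1 in controls and rose by 1.71 ± 0.24 (adjusted p = 0.0037). Anxa7, an annexin, had 1545, 1241 and 1286 in the PBO 500 animals, against 338, 422 and 476 in controls with 1 probe set (1.69 ± 0.23, adjusted p = 0.00349), while its other probe set, with a change of 1.12, was not called (adjusted p = 0.0608). Reep6, which shapes membranes of the endoplasmic reticulum, rose with both of its probe sets, by 1.09 ± 0.12 and 1.23 ± 0.14. Irak1, a kinase of interleukin-1 signalling, also rose with both, by 0.76 ± 0.13 and 1.13 ± 0.17, the first of which lost its call without PBO 500 replicate 2 or 3 or control replicate 2 or 3 (adjusted p of 0.124, 0.0593, 0.107 and 0.0959). Rex1bd rose by 0.91 ± 0.12 (adjusted p = 0.00273).

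The rises of Sbspon, Zdhhc2, Blvrb, Lbp, Pex7, Rexo2, Hprt1, Sil1 and Acyp2 did not hold against every single array left out. Sbspon, an extracellular matrix protein, had 466, 325 and 349 in the PBO 500 animals, against 69.5, 51.3 and 126 in controls and rose by 2.07 ± 0.34, and Zdhhc2, a palmitoyltransferase, by 1.51 ± 0.24. Sbspon lost its call without PBO 500 replicate 1 or 3 or control replicate 1 or 2 (adjusted p of 0.0824, 0.0501, 0.0771 and 0.0804), and Zdhhc2 without PBO 500 replicate 1 or 3 or control replicate 2 (adjusted p of 0.0563, 0.0567 and 0.0644). Blvrb, a biliverdin reductase, rose by 0.97 ± 0.17 and lost its call whichever of the 6 arrays was left out (adjusted p of 0.057 to 0.119). With Abcb6 it was 1 of 2 rises among 19 genes of haem synthesis and breakdown (0.44% of all genes were called higher). Lbp, the lipopolysaccharide binding protein, was the only call among 37 plasma and acute phase proteins, with a rise of 0.73 ± 0.14 that was lost without PBO 500 replicate 1 or 3 or control replicate 1, 2 or 3 (adjusted p of 0.144, 0.143, 0.171, 0.0992 and 0.168). Pex7, a receptor of peroxisomal import, rose by 0.68 ± 0.13, and Rexo2, a mitochondrial oligoribonuclease, by 0.61 ± 0.10. Pex7 lost its call without PBO 500 replicate 1 or 2 or control replicate 1 or 2 (adjusted p of 0.115, 0.17, 0.143 and 0.161), and Rexo2 without PBO 500 replicate 1 or 3 or control replicate 1 or 2 (adjusted p of 0.0619, 0.057, 0.0725 and 0.0574). Hprt1, a purine salvage enzyme often used as a constant reference, had 7766, 7858 and 7143 in the PBO 500 animals, against 5229, 5816 and 4678 in controls and rose by 0.54 ± 0.10. Hprt1 lost its call without PBO 500 replicate 1, 2 or 3 or control replicate 1 or 3 (adjusted p of 0.144, 0.175, 0.0612, 0.141 and 0.16). Sil1, a helper of an endoplasmic reticulum chaperone, rose by 0.82 ± 0.15 and lost its call whichever of the 6 arrays was left out (adjusted p of 0.0579 to 0.142). Acyp2, an acylphosphatase, rose by 1.09 ± 0.19 and lost its call without PBO 500 replicate 1 or 2 or control replicate 1, 2 or 3 (adjusted p of 0.13, 0.131, 0.0805, 0.134 and 0.091).

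Of the 15 called probe sets without a single symbol, 10 were higher and 5 lower, and 7 carry several symbols and 8 none. Those with no description above had changes of 0.51 to 1.84 where higher and -0.61 to -2.86 where lower.

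Some lists had no call and yet had mostly positive changes. Of 37 proteasome subunits none was called, but 31 changes were positive, the median was 0.22, and in 22 the dosed animals were all above the controls, against 9.35% of all genes. The signals summed over the 37 were 193111 to 197595 in PBO 500 animals and 159662 to 165647 in controls, without overlap. Psmb4 came nearest to the threshold (0.54 ± 0.11, adjusted p = 0.0508), and without PBO 1500 replicate 3, 7 of the 37 were called higher (1.61% of all genes). No member was called among genes of bile acid synthesis (17 measured), growth hormone signalling (32), the circadian clock (18), ATF4 targets (26), endoplasmic reticulum chaperones (26), p53 targets (14), immediate early genes (25), complement and coagulation (33), the respiratory chain (62) or cytosolic ribosomal proteins (36). At an unadjusted p under 0.05 these 10 lists had 0 to 4 members higher and 0 to 5 lower (5.07% and 5.66% of all genes). The most were 4 of 26 ATF4 targets higher and 5 of 25 immediate early genes lower, and among the immediate early genes 19 of 25 changes were negative, with a median of -0.28. Cyp7a1, the rate-limiting enzyme of bile acid synthesis, had 3296, 3567 and 624 in the PBO 500 animals, against 1235, 4135 and 1261 in controls, and Cdkn1a, a p53 target, 1009.7, 541 and 299.9 in the PBO 500 animals, against 371, 412 and 807 in controls. In both the groups overlapped (adjusted p of 0.99 and 0.96). Gadd45b, a stress-responsive gene, had 101, 61.7 and 14.2 in the PBO 500 animals, against 20.4, 54.5 and 109 in controls, which also overlapped (adjusted p = 0.991).

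Markers of other cells were compared next. In a bulk sample, fewer cells of a type and less RNA per cell cannot be told apart. No marker list had a called member. Erythroid markers, 4 of 13 measured, had summed signals of 14172 to 16967 in PBO 500 animals and 21710 to 23136 in controls, without overlap. Kupffer cell and macrophage markers, 11 of 15 measured, all had negative changes, with a median change of -0.34. Their sums were 17183 to 25644 in PBO 500 animals and 25528 to 27340 in controls, which overlapped slightly. The list's median, relative to the control mean, was -0.33, -0.65 and 0.02 in PBO 500 replicates 1, 2 and 3. In controls it was -0.08 to 0.06, so replicate 3 lay at the control level. Cholangiocyte markers, 5 of 10 measured, summed to 1776 to 2065 in PBO 500 animals and to 1209 to 1513 in controls, without overlap. The list's median, relative to the control mean, did overlap (0.13 to 0.42 in PBO 500 animals, -0.07 to 0.16 in controls). All PBO 500 values were above all controls in 1 of the 5 markers. Epcam had the smallest adjusted p of the 5 (0.60 ± 0.13, adjusted p = 0.0732). Stellate cell and matrix markers, all 18 measured, summed to 13212 to 16771 in PBO 500 animals and 16232 to 23404 in controls. The 9 measured endothelial markers summed to 12344 to 12403 in PBO 500 animals and 12536 to 13911 in controls. Lymphocyte and neutrophil markers, 11 measured in all, overlapped between the groups in each of their 3 lists. No probe set of the arrays had a value of 0. The ratio of 3' to 5' probe signal of actin was 2.61 to 2.83 in PBO 500 animals and 2.85 to 3.16 in controls, and that of GAPDH 1.12 to 1.19 in PBO 500 animals and 1.13 to 1.17 in controls. The part of these markers and ratios in the gene results was not tested.

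Between 1000 and 500 mg/kg, 2 probe sets were called (0.0107%), both lower at 1000 mg/kg and none of them among the 89. Without PBO 1500 replicate 3, 10 were called, and without any 1 of the 500 or 1000 mg/kg arrays 0 or 1. The 2 were Stac3, an adaptor protein best known in muscle, and probe set 1384357_at, which has no symbol, both chosen after their values were seen. The mean signals of Stac3 at 0, 500, 1000 and 1500 mg/kg were 13747 ± 775, 3917 ± 959, 328 ± 258 and 95.8 ± 54.6 (SD, n = 3 each). At 500 mg/kg it was not called (-1.83 ± 0.43, adjusted p = 0.0987), with signals of 5025, 3380.3 and 3347 in the PBO 500 animals, against 12954, 14503 and 13784 in controls. Against controls, 87 of the 89 passed at 1000 mg/kg and 83 at 1500 mg/kg, in the direction seen at 500 mg/kg, but those comparisons share the control arrays (3.12% and 17.3% of all probe sets were called in them).

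Between 1500 and 500 mg/kg, 1370 probe sets were called (7.36%), and 40 of the 89 were among them. The count was 663, 613 and 811 without PBO 500 replicate 1, 2 and 3. Of the 65 rises, 28 went further up (3.75% of all probe sets were higher at 1500 mg/kg) and none came down. Of the 24 falls, 6 went further down (3.6% of all were lower) and 6 came back up. The 89 were chosen by the same 500 mg/kg arrays that this contrast subtracts. That choice favours a return toward controls, so the shares of all probe sets are no fair measure for these counts. Gene by gene the shapes differed. Ggt1 averaged 111 ± 37.2, 787 ± 153, 1579.7 ± 265 and 4261 ± 834 over the 4 doses from 0 to 1500 mg/kg, and was higher at 1500 than at 500 mg/kg by 2.41 ± 0.22 (adjusted p = 1.38e-04). Nol3 likewise climbed at each dose (59.7 ± 18.8, 298 ± 68.6, 957 ± 258 and 2835 ± 564), with a difference of 3.19 ± 0.26 between 1500 and 500 mg/kg (adjusted p = 6.91e-05). Gstm3 averaged 110.0 ± 18.4, 956 ± 415, 1379 ± 842 and 8038 ± 4886 over the same doses, a difference of 2.97 ± 0.43 (adjusted p = 0.00216).

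Other rises were not called different between 1500 and 500 mg/kg. The Cyp2b-family probe set 1371076_at averaged 3039 ± 255, 37449.5 ± 3108, 39491 ± 2116 and 37699 ± 3912 at 0, 500, 1000 and 1500 mg/kg, a difference between 1500 and 500 mg/kg of 0.01 ± 0.11. Ugt2b1 averaged 4065 ± 1567, 33948 ± 2926, 34377 ± 714 and 31464 ± 4538 and differed by -0.12 ± 0.20, Ephx1 by 0.03 ± 0.12 and Cyp3a23-3a1 by -0.08 ± 0.10 (adjusted p of 0.976, 0.779, 0.9 and 0.694). Abcc3 differed by 0.68 ± 0.29 (adjusted p = 0.185). These p miss the threshold, which does not show that the levels were equal.

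The falls split in the same contrast. Gulo, with mean signals of 10567 ± 933, 7203 ± 531, 5725 ± 232 and 3282 ± 321 over the 4 doses, fell further (-1.13 ± 0.11, adjusted p = 1.58e-04), as did Csrp1 (-1.23 ± 0.19), Abcc9 (-1.04 ± 0.23), Slpi (-0.92 ± 0.23), Zfp266 (-0.62 ± 0.16) and the called probe set of Slc22a8 (-1.99 ± 0.32). Ncaph averaged 131 ± 40.4, 12.6 ± 0.472, 79.9 ± 44.3 and 168 ± 33.4 and was higher at 1500 than at 500 mg/kg by 2.67 ± 0.39 (adjusted p = 0.00223). Cdkn3 averaged 309 ± 55.1, 36.3 ± 36.3, 58.3 ± 37.9 and 202 ± 92.7, a difference of 2.19 ± 0.54 (adjusted p = 0.0275), and Cdca3 differed by 1.56 ± 0.29 (adjusted p = 0.00784). Acsf2, with 1071 ± 206, 477 ± 30.5, 960.0 ± 156 and 1376 ± 334, was higher by 1.47 ± 0.20 (adjusted p = 0.00126). The other 2 that came back up were the probe sets 1384068_at and 1389408_at, which carry several symbols. Over the whole cell cycle list 16 of 58 members were higher at 1500 than at 500 mg/kg and none was lower, with a median difference of 0.90, and 4.74% of all genes were higher and 4.24% lower in that contrast. Scd stayed low, with mean signals of 12357 ± 3204, 125 ± 47.7, 312 ± 349 and 446 ± 339, and its difference of 1.52 ± 0.62 was not called (adjusted p = 0.163).

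**Figure D4:**
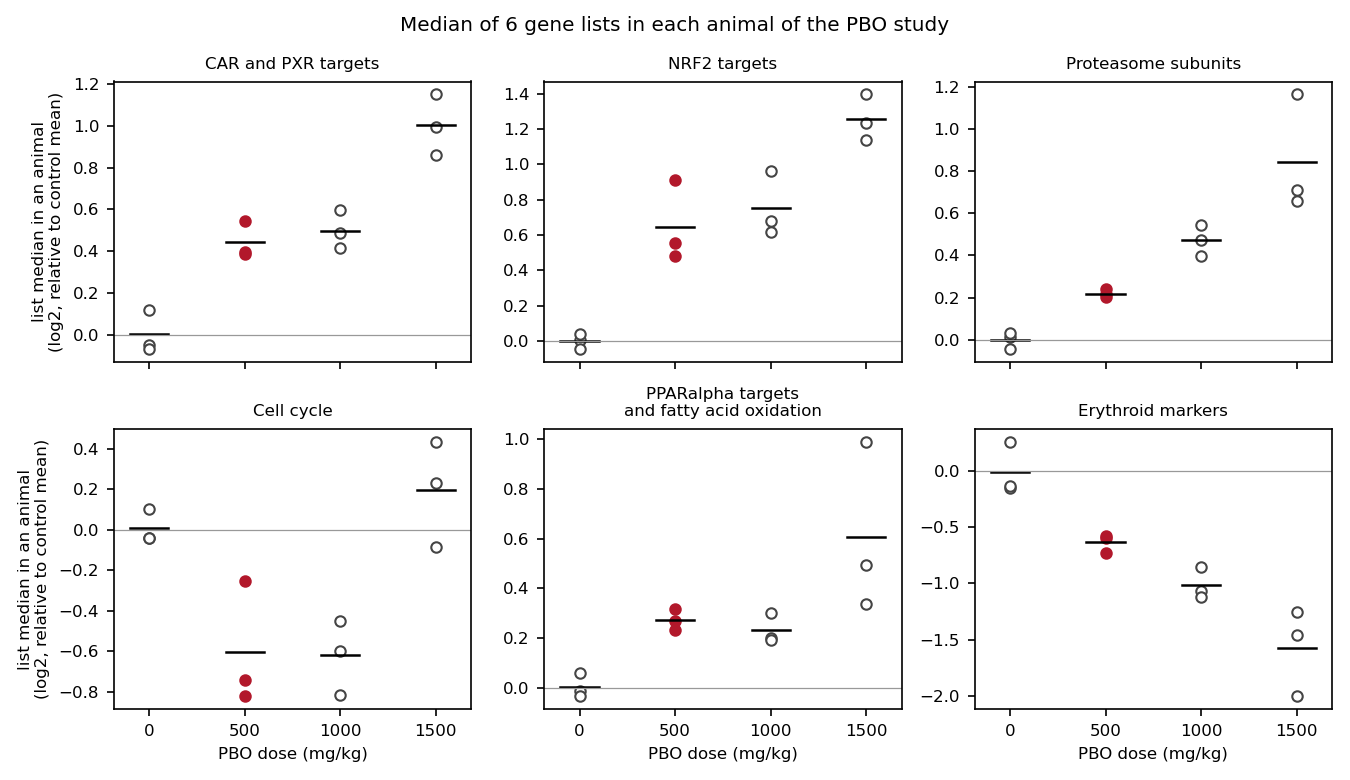
For 6 gene lists, the median over members of an animal's log2(signal + 16) minus the control mean, by PBO dose, with 3 animals a dose and a bar at their mean. Filled red points are the 500 mg/kg animals. The cell cycle list is lower than in controls at 500 and 1000 mg/kg and near the controls at 1500 mg/kg, while the CAR and PXR, NRF2 and proteasome lists are highest at 1500 mg/kg.

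DAM at 800 mg/kg, the lowest dose of the other compound, has controls of its own. It had 705 calls (3.79%), from 382 to 575 when 1 of its 6 arrays was left out, with 382 without DAM 800 replicate 3, 433 without DAM 800 replicate 2, 445 without DAM 800 replicate 1 and 459 without DAM control replicate 1. Of the 89 PBO 500 probe sets, 58 were among the 705, which is 65.2% of the PBO 500 calls and 8.23% of the DAM calls. All 58 changed in the same direction in both studies, and 85 of the 86 that were tested in the DAM study had the same sign there. The compound, strain, route, duration and storage of the tissue all differ between the studies and cannot be told apart. Gsta3 changed by 4.57 with PBO and 4.03 with DAM, and Ggt1 by 2.68 and 2.43. Apoa4 changed by -2.42 with PBO and -3.48 with DAM, and Sult2a6 by 2.71 and 3.56. For Gsta3, Ggt1, Apoa4 and Sult2a6 the difference between the studies was not called (adjusted p of 0.947, 0.994, 0.914 and 0.926).

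The difference between the 2 changes was called for 14 probe sets (0.0752%), 6 of them among the 89, and all 6 had the larger rise with PBO, the direction of 0.043% of all probe sets. The 89 were chosen by PBO arrays that also enter this difference, which favours larger changes with PBO among them. Without PBO 1500 replicate 3 the count of 14 became 40, it was 8 without DAM 800 replicate 3, and 9 without PBO 500 replicate 3, DAM control replicate 2, or DAM 800 replicate 1 or 2. Abcc3 changed by 4.97 with PBO 500 and 1.70 with DAM 800, a difference of 3.28 ± 0.39 (adjusted p = 4.92e-04). The signals of the DAM 800 animals were 251, 223 and 129 and those of the DAM controls 43.3, 42.6 and 61.7, so their groups were apart too. Ces2c differed by 2.32 ± 0.27 (adjusted p = 4.92e-04), the Cyp2b-family probe set 1371076_at by 2.35 ± 0.13 (adjusted p = 4.29e-09) and Slc37a1 by 2.10 ± 0.33 (adjusted p = 0.0103). Slc37a1 had a change of -0.39 with DAM that was not called (adjusted p = 0.465). App, with its probe set 1371572_at, differed by 1.00 ± 0.14 (adjusted p = 0.00567), and Mgst2 by 0.67 ± 0.13 (adjusted p = 0.0437). Scd, with changes of -6.48 and -2.52, had a difference of -3.96 ± 0.88 that was not called (adjusted p = 0.158).

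**Figure D5:**
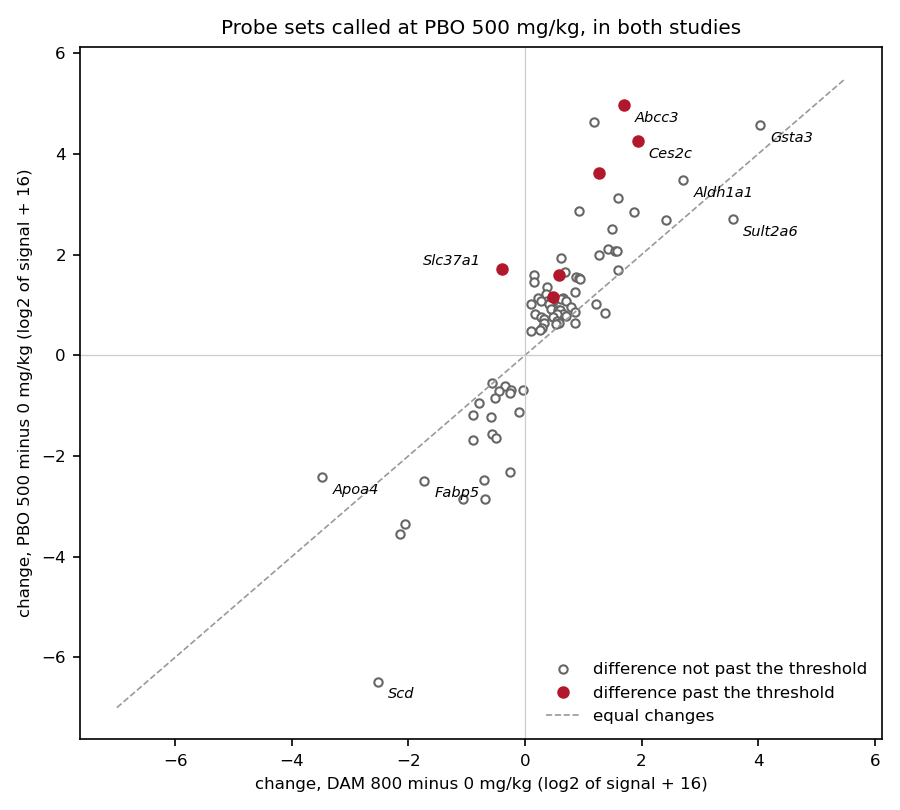
Change at DAM 800 mg/kg (horizontal) and at PBO 500 mg/kg (vertical), each against its own controls (log2 of signal + 16), for the 86 called PBO 500 probe sets that were tested in both studies. Filled red points are those whose difference between the studies was called, the dashed line marks equal changes, and 85 of the 86 points have the same sign on both axes.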

How the data were processed

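The deposited values are intensities, linear signals that the authors computed for 31099 probe sets on 21 arrays of rat liver RNA, and MAS5 is the tool named in the submitters' processing notes. Software versions and the genome build are not given in the sources used here. Probe sets were named from the platform annotation, updated through RefSeq gene IDs: 20832 had 1 symbol, 436 several and 9831 none. Control probe sets (57) were left out. Signals were taken as log2(signal + 16), probe sets under the 40th percentile of mean signal were left out, and limma 3.58.1 (R 4.3.3; lmFit, eBayes with trend) was fitted over the 12 PBO arrays, the 9 DAM arrays or all 21. P-values were adjusted by the Benjamini-Hochberg method over 18625 probe sets. limma was tested on simulated data.

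A gene stands for its probe set with the highest mean. Genes named are those called, the fixed genes, and up to 6 members of each list by adjusted p. The comparison, gene lists and fixed genes were chosen with earlier results of these data known. Per-animal values go first to the 12 largest rises and 12 largest falls whose groups do not overlap. Pklr, Stac3 and the genes of the closing section that stand outside this rule were chosen after their values were seen. Of the 17 fixed genes, Cyp2b1 and Cyp2b2 have no tested probe set under a single symbol.

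Alternatives were the pseudocount, the filter, quantile normalization, median scaling, no trend, a replicate block, array weights, fits on fewer arrays and leaving out each array. Replicate numbers were checked for pairing: deviations from group means of same-numbered PBO 500 and control arrays correlated at -0.009, -0.008 and 0.028, so the numbers were not taken as pairs. Coordinates are those of RefSeq promoter windows on GRCr8.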

Additional observations from a re-analysis of the deposited data

Results flagged for a closer look

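The change at PBO 500 mg/kg and that at DAM 800 mg/kg, each against its own controls, differed by the test of the difference for 14 probe sets (limma, Benjamini-Hochberg, differences in log2 as PBO change minus DAM change). The compound, strain, route, duration and tissue storage differ between the studies and cannot be told apart.

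In 8 the difference was positive. It was 3.28 for Abcc3 (4.97 with PBO and 1.70 with DAM), 3.15 for probe set 1393358_at of Abhd11, a lipid hydrolase (1.55 and -1.60), 2.35 for the Cyp2b-family probe set 1371076_at (3.62 and 1.27) and 2.32 for Ces2c (4.25 and 1.93). It was 2.10 for Slc37a1 (1.71 and -0.39), 1.54 for Ehhadh, a peroxisomal beta-oxidation enzyme (1.05 and -0.49), 1.00 for App (1.59 and 0.59) and 0.67 for Mgst2 (1.15 and 0.48). Adjusted p was 0.0302 for Abhd11 and 0.0397 for Ehhadh, neither of which was called with PBO alone.

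In 6 the difference was negative, and none of these was called at PBO 500 mg/kg. It was -4.28 for Abcg5, a sterol exporter (-0.04 with PBO and 4.23 with DAM, adjusted p = 0.00613), -2.55 for probe set 1370465_at of Abcb1a, a drug efflux pump (0.12 and 2.68, adjusted p = 0.00783), and -1.72 for Fndc5 (-0.24 and 1.48, adjusted p = 0.00613). Probe sets without a single symbol were 1371922_at at -2.85 (-0.88 and 1.97), 1369840_at at -2.11 (0.28 and 2.39) and 1382857_at at -0.84 (-0.45 and 0.40).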

How the results depend on the processing

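The PBO 500 count of 89 became 45 with no trend, 348 with array weights, 269 with only the compared groups, 371 without PBO 1500 replicate 3 and 357 without the 1500 mg/kg group (chosen after seeing the data), and 52 to 66 leaving out 1 compared array. It was 79 to 113 under the other settings, and no called value changed direction. Of the 89, 43 kept their call with no trend, 82 with quantile normalization, 80 with median scaling and 76 with no filter. With a replicate block 87 were called, 73 of them among the 89. The count between 1000 and 500 mg/kg, 2, became 4 with a replicate block, 5 with array weights, 10 without PBO 1500 replicate 3 and 0 to 1 leaving out 1 array. That between 1500 and 500 mg/kg, 1370, became 801 with no trend, 245 with only the compared groups and 613 to 1976 leaving out 1 array. The DAM count of 705 became 235 with no trend and 382 to 575 leaving out 1 array. The 14 differences between the studies became 9 with no trend, 42 with array weights, 43 with only the compared groups, 40 without PBO 1500 replicate 3 and 8 to 13 leaving out 1 array. Fewer arrays enter the fits that leave one out. Otherwise the cause was not tested.

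Genes near 0 that changed sign were Cyp2c11 (-0.05, 0.0421 with median scaling, -0.118 to 0.0228 leaving out 1 array), Gadd45b (-0.07, 0.00366 with median scaling, 0.13 with array weights, -0.53 to 0.48 leaving out 1 array), Cyp7a1 (0.07, -0.37 to 0.87), Cdkn1a (0.14, -0.29 to 0.56) and Alb (0.13, -0.0044 to 0.31), the last 3 leaving out 1 array. With 3 arrays a group, small changes of dim probe sets cannot be resolved.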

Other observations

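Lysosomal proteins, a list chosen after the data were seen, had 3 rises and no fall among 41 measured genes (0.44% of all genes were called higher and 0.141% lower). Of the 41 changes 33 were positive, against 4746 of 10670 over all genes tested, and the median was 0.12. Because the list was chosen after the data were seen, the shares of all genes are no fair measure for its counts. Ctsd, the lysosomal protease cathepsin D, had 5113, 4344 and 5870.2 in the PBO 500 animals, against 2177, 2594 and 2442 in controls, with no overlap, and rose by 1.08 ± 0.13 (limma, adjusted p = 0.00107). Creg1, a lysosomal glycoprotein, rose by 1.02 ± 0.16 with 1 probe set, while its other probe set was not called (0.83 ± 0.22, adjusted p = 0.158). Gaa, acid alpha-glucosidase, rose with both of its probe sets, by 0.89 ± 0.14 and 1.11 ± 0.18. Creg1 lost its call without PBO 500 replicate 1, 2 or 3 or control replicate 1 or 2 (adjusted p of 0.0518, 0.0759, 0.0543, 0.0725 and 0.0685). The first probe set of Gaa lost its call without PBO 500 replicate 1 or 3 or control replicate 1, 2 or 3 (adjusted p of 0.0716, 0.057, 0.0529, 0.0672 and 0.0667), and the second without PBO 500 replicate 1 or 2 or control replicate 1 or 2 (adjusted p of 0.0916, 0.0891, 0.0933 and 0.0837).

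Several genes had groups that did not overlap and large changes without being called. Among these the highest were Cyp1a1, Adgrg2 (2.16, adjusted p = 0.105), Gpx2, a glutathione peroxidase (2.01, adjusted p = 0.0767), Gstt3, a theta-class glutathione transferase (1.90, adjusted p = 0.0864), and Piezo1, a mechanosensitive channel (1.81, adjusted p = 0.0891). On the other side were Ubd, a ubiquitin-like protein (-3.49, adjusted p = 0.336), Sds, serine dehydratase (-2.68, adjusted p = 0.32), and Lox, a collagen cross-linking enzyme (-2.51, adjusted p = 0.103). The mitotic genes Kif20a (-2.16, adjusted p = 0.105) and Pttg1 (-2.06, adjusted p = 0.0848), and the replication factor Pclaf (-1.89, adjusted p = 0.0635), were lower as well. All of these values are changes on the log2(signal + 16) scale from the limma fit.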
